A study of Mus musculus with 9 samples.

Results

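Matrix metalloproteinases (MMPs) are zinc-dependent enzymes that cut collagens, elastin and other proteins around cells, and tissue inhibitors of metalloproteinases (TIMPs) are the proteins that block them. Transcripts of 7 MMP genes (Mmp2, Mmp8, Mmp9, Mmp12, Mmp14, Mmp19 and Mmp25) and 3 TIMP genes (Timp1, Timp2 and Timp3) were followed in mouse lung after silica. These 10 genes were chosen by symbol, out of 55359 genes in the deposited table. All 10 were among the 15459 genes that reached 1 FPKM (fragments per kilobase of exon, scaled to the depth of the library) in at least 3 of 9 libraries and were tested. Mmp25 reached that level in the 3 Silica + ATL-III libraries alone, so a higher level there was a condition of its being tested.

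Whole lungs of wild-type C57BL/6J males aged 6 to 8 weeks were sampled on day 28 after an instillation into the trachea and profiled by poly(A) RNA sequencing. Control mice were given saline. Silica mice were given 5 mg of silica, a mineral dust behind the fibrotic lung disease silicosis. Silica + ATL-III mice were given silica and, into the abdomen, 30 mg/kg of atractylenolide III per day, a sesquiterpene lactone found in Atractylodes plants. How long it was given is not stated, no group had it without silica, and no abdominal injection is named for the other groups, so the compound and its injection cannot be told apart. Each group had 20 mice and 3 libraries, and the labels do not say whether a library is 1 mouse. The p-values therefore measure the spread between these libraries, which may be partly technical.

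As background, MMPs are made as inactive precursors that other proteases, such as furin and plasmin, cut to activate. Macrophages are known for making the elastase Mmp12, while neutrophils store Mmp8 and Mmp9 in their granules and carry Mmp25 on their surface. Mmp14 sits in the membrane of fibroblasts and other cells and activates the gelatinase Mmp2 with the help of Timp2. Transcript levels give neither the amount of stored protein nor its activity.

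The 10 genes lie on 8 chromosomes, and 2 of them, Mmp8 (chr9:7558456-7568485) and Mmp12 (chr9:7344381-7369499), share a cluster of MMP genes on chromosome 9. The others are Mmp2 (chr8:92827291-92853420), Mmp9 (chr2:164940780-164955850), Mmp14 (chr14:54431612-54445364), Mmp19 (chr10:128790910-128800824), Mmp25 (chr17:23628311-23645277), Timp1 (chrX:20870166-20874735), Timp2 (chr11:118301069-118355740) and Timp3 (chr10:86300372-86349506). Mmp25 and Timp2 are on the minus strand, the others on the plus strand. Positions are from GENCODE M21 (GRCm38), matched by gene identifier, and all 10 genes are protein coding there. Values are summed over all exons of a gene.

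Some members share exons with a gene on the other strand. The sources used here do not give the strand setting of the counting. Mmp19 shares 22.3% of its exonic bases with Tmem198b, which was at 1.45 to 3.89 FPKM, and 6.0% with the antisense gene Gm47093, which had 0 to 3 counts per library. Timp3 lies within Syn3 and shares 21.3% of its exonic bases with it, but Syn3 was at 0.15 to 0.31 FPKM. Timp1 lies within Syn1 and shares no exonic base with it. If the counting ignored strand, reads of such pairs cannot be told apart where their exons meet.

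Promoter sequence is given for Mmp12 and Mmp8, which had the largest fold changes among the 10 genes, and for Mmp25, which was high in the same libraries as Mmp8. The RefSeq promoter table (GRCm38.p6) held 8 windows for 7 of the 10 genes, with no entry for Mmp2, Mmp9 and Mmp19. Shown are the 250 bases before the annotated start, 5′ to 3′ on the strand of the gene. Capitals mark matches, on either strand, to motifs of 3 factors of myeloid and activated cells: AP-1 (TGANTCA), C/EBP (TTGCNNAA) and PU.1 or other ETS factors (GAGGAAG). The motifs were chosen after the sequences were seen.
Mmp8, chr9:7558179-7558428: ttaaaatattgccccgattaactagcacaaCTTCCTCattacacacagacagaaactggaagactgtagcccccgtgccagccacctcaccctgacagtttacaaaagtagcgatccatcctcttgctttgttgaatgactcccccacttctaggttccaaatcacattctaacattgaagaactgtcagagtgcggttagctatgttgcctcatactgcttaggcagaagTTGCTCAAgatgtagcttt
Mmp12, first start, chr9:7344147-7344396: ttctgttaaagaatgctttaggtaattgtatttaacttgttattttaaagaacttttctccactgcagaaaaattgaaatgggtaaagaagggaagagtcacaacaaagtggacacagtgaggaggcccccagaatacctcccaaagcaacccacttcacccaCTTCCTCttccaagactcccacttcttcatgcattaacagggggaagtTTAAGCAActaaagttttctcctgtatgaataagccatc
Mmp12, second start, chr9:7347124-7347373: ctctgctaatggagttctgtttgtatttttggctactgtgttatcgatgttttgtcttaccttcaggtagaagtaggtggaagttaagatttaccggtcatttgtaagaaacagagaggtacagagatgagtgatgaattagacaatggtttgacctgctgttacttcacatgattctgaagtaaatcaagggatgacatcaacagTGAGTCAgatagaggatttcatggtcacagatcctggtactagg
Mmp25, chr17:23645270-23645519: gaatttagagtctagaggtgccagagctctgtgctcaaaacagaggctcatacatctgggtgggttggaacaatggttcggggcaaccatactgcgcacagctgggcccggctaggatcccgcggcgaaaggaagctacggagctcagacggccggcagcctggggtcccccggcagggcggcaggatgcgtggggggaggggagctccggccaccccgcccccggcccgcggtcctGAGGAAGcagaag
The second Mmp12 start lies inside the gene, outside its exons, and the first window includes 16 bases of a GENCODE exon of Mmp12, the Mmp25 window 8 bases of its own.

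Mmp8 had a C/EBP match, TTGCTCAA, from 19 to 12 bases before its start and a PU.1 or ETS match, CTTCCTC, from 220 to 214 bases before it. The first Mmp12 window had the same kinds of match, TTAAGCAA from 39 to 32 bases and CTTCCTC from 87 to 81 bases before the start. The second Mmp12 window had an AP-1 match, TGAGTCA, from 44 to 38 bases before that start. Mmp25 had GAGGAAG from 13 to 7 bases before its start. No match overlapped another, and the windows of Mmp14, Timp1, Timp2 and Timp3 held none of these letters. Such matches are frequent: among 32851 windows of the same length, 6.7% held the AP-1 letters, 9.6% the C/EBP letters and 10.6% the PU.1 or ETS letters. They are matches of letters and were not tested as binding sites.

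Libraries had 16047175 to 17792481 counts, and the 10 genes had 23 to 35566 counts per library. Log2 values of all tested genes correlated at 0.979 to 0.986 within groups and at 0.946 to 0.977 between groups. Lung epithelial markers summed to 67335 to 121905 FPKM with no marker at 0 in any library. Most of each sum was Scgb1a1, at 51.4% to 78.1%. The lowest sum was that of Silica 1, where Scgb1a1 was at 34593 FPKM, against 71946 to 94851 FPKM in the other libraries. B and T cell markers summed to 28.6 to 65.8 FPKM in Control and Silica and to 9.39 to 22.9 FPKM in Silica + ATL-III. Heart muscle markers summed to 109 to 125 FPKM in Control and to 38.2 to 70.55 FPKM in the other groups. Control 2 and Silica 2 stood apart within their groups in the sum of 13 neutrophil markers, at 3875 FPKM against 553 and 581, and at 4495 FPKM against 730 and 1930. S100a9 was 52.7% to 54.4% of these sums. Not every marker followed: Camp was lowest of its group in Control 2 (0.90 FPKM) and Ltf in Silica 2 (7.36 FPKM).

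In Control lung Timp2 and Timp3 had the highest levels of the 10 genes per length of transcript. Timp2 was at 55.7 ± 4.29 FPKM (SD, n = 3 libraries here and below) and Timp3 at 39.6 ± 6.88 FPKM. Mmp2 (9.18 ± 0.661), Timp1 (8.97 ± 0.972) and Mmp8 (8.75 ± 7.62) came next, and did not differ beyond their spread. Mmp14 (3.95 ± 0.415), Mmp19 (3.75 ± 0.533) and Mmp9 (3.22 ± 2.69) likewise lay within each other's spread. Mmp12 (1.19 ± 0.137) and Mmp25 (0.447 ± 0.265) were lowest of the 10. In Silica lung Mmp12 had the highest mean of the 10, at 175 ± 109 FPKM, followed by Timp2 at 53.1 ± 5.19 FPKM. In Silica + ATL-III lung Mmp8 was first, at 597 ± 145 FPKM, and Timp3 followed at 64.1 ± 27.8 FPKM, overlapping in spread with Timp2 at 40.8 ± 3.70 FPKM.

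**Figure D1:**
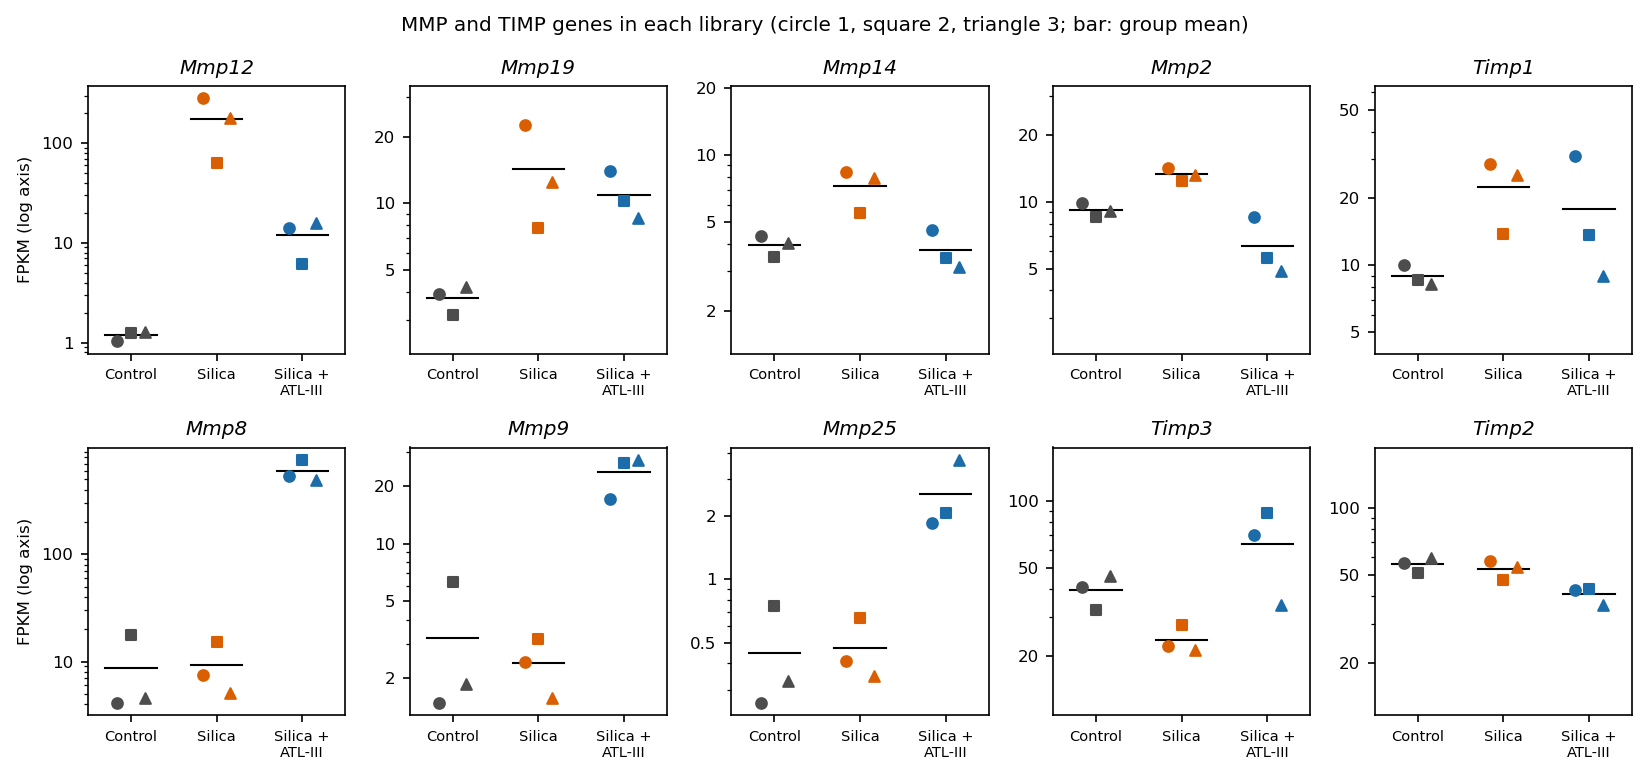
Transcript level (FPKM, log axis) of each of the 10 genes in each library, with circles for replicate 1, squares for 2, triangles for 3 and a bar for the group mean. Mmp12 was highest in Silica (63.7 to 282 FPKM) and Mmp8 in Silica + ATL-III (488 to 763 FPKM), with no overlap with the other groups.

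The first comparison, Silica against Control, asks what silica alone did. Of the 10 genes, 5 were higher (Mmp12, Mmp19, Timp1, Mmp14 and Mmp2) and none was called lower by edgeR's quasi-likelihood test, at a Benjamini-Hochberg adjusted p under 0.05 over all tested genes. Of all tested genes, 16.9% were called, 9.11% higher and 7.81% lower. At an unadjusted p under 0.05, 1 member, Timp3, was lower, while DESeq2 and limma called 0 lower. The median log2 fold change was 0.41 over the 10 genes and -0.01 over all tested genes.

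Mmp12, the macrophage elastase, had the largest change of the 10. It was at 1.03, 1.25 and 1.28 FPKM in Control, at 282, 63.7 and 178 FPKM in Silica, and at 14.25, 6.17 and 15.9 FPKM in Silica + ATL-III, in replicate order. Every Silica library was above every Silica + ATL-III library, and those were all above Control. Its log2 fold change from Control to Silica was 7.32 ± 0.60 (SE, edgeR adjusted p = 6.7e-05), a 160.1-fold difference. Between Silica and Silica + ATL-III it fell by 3.85 ± 0.50 on the log2 scale (edgeR adjusted p = 0.00047), or 14.4-fold. It was still 11.1-fold above Control there (log2 3.48 ± 0.51, edgeR adjusted p = 0.00086). In whole lung, more cells of a type and more transcript per cell cannot be told apart.

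Mmp19, a secreted protease of the basement membrane and other matrix, rose with silica but was not called between the silica groups. It was at 3.91, 3.16 and 4.19 FPKM in Control, 22.6, 7.74 and 12.5 FPKM in Silica, and 13.95, 10.3 and 8.59 FPKM in Silica + ATL-III. Both silica groups lay above Control and overlapped each other. The log2 fold changes from Control were 2.04 ± 0.34 in Silica (edgeR adjusted p = 0.0039) and 1.66 ± 0.34 in Silica + ATL-III (0.0062). The difference between Silica + ATL-III and Silica was -0.38 ± 0.32 (edgeR adjusted p = 0.43), and it ranged from -0.69 to 0.15 over 16 alternative settings without being called.

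Macrophage markers moved in the same samples as Mmp12. The 12 markers summed to 7940 to 10045 FPKM in Control, 15740 to 18282 FPKM in Silica and 10722 to 14097 FPKM in Silica + ATL-III, with none at 0 in any library. Most of each sum was the lysozyme gene Lyz2, at 81.1% to 91.9%. The other 11 summed to 712 to 875 FPKM in Control, 1663 to 2796 FPKM in Silica and 1666 to 2631 FPKM in Silica + ATL-III. The sums without Lyz2 thus overlapped between the silica groups. Among these 11, Chil3 was at 1053, 1056 and 1711 FPKM in Silica and 1177, 1272 and 2198 FPKM in Silica + ATL-III. The mean log2 value of all 12 markers, which weighs each marker alike, did not overlap. It was 5.67 to 6.23 in Silica and 5.28 to 5.45 in Silica + ATL-III. In Silica 9 of 12 were called higher than in Control. In Silica + ATL-III 5 of 12 were called lower than in Silica (3 of 12 without Silica 1, Silica 3, Silica + ATL-III 2 or Silica + ATL-III 3). Against Control 8 of 12 were higher there, or 5 without Control 2 or Control 3. Among Silica libraries, Silica 2 was lowest in Mmp12, in Mmp19 and in the marker sum. The part of macrophage number in these results was not tested.

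Mmp14, the membrane protease that activates Mmp2, and Mmp2 itself, a gelatinase that fibroblasts are known to make, were higher in Silica and lower again in Silica + ATL-III. Mmp14 was at 4.32, 3.50 and 4.02 FPKM in Control, 8.40, 5.48 and 7.88 FPKM in Silica and 4.63, 3.46 and 3.13 FPKM in Silica + ATL-III. All Silica values were above those of both other groups, which overlapped. Mmp14 rose 1.98-fold with silica (log2 0.98 ± 0.19, edgeR adjusted p = 0.008) and was 1.92-fold lower in Silica + ATL-III than in Silica (log2 -0.94 ± 0.19, edgeR adjusted p = 0.0054). Against Control its log2 difference was 0.04 ± 0.19 (edgeR adjusted p = 0.92).

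Mmp2 was at 9.86, 8.54 and 9.15 FPKM in Control, 14.2, 12.5 and 13.25 FPKM in Silica and 8.54, 5.58 and 4.87 FPKM in Silica + ATL-III. The Silica libraries were above all others, and the Silica + ATL-III libraries reached the lowest Control value and lay below the rest. Its rise with silica was 1.55-fold (log2 0.64 ± 0.18, edgeR adjusted p = 0.032), and its fall from Silica to Silica + ATL-III 2.08-fold (log2 -1.06 ± 0.18, edgeR adjusted p = 0.0021). The rise was no longer called without Control 1, 2 or 3, Silica 1 or Silica 3 (adjusted p up to 0.11), nor on library totals or with limma. Silica + ATL-III against Control was not called (log2 -0.42 ± 0.18, edgeR adjusted p = 0.14), except without Silica + ATL-III 1, on TPM with limma and with no FPKM filter (adjusted p = 0.009, 0.017 and 0.048).

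Fibroblast markers did not follow the same order as Mmp2 and Mmp14. The 12 markers summed to 1796 to 2063 FPKM in Control, 1183 to 1392 FPKM in Silica and 812 to 1340 FPKM in Silica + ATL-III, with none at 0. Most of each sum was Inmt, a methyltransferase, at 70.0% to 85.7%, and the other 11 markers summed to 350.2 to 383 FPKM in Control, 262 to 292 FPKM in Silica and 192 to 243 FPKM in Silica + ATL-III. Of the 12, 2 were lower in Silica than in Control (0 to 4 on leaving out a library). Between Silica and Silica + ATL-III 5 were lower and 1, Pi16, was higher. Against Control 7 were lower in Silica + ATL-III and 1 was higher. The part of fibroblast number in these results was not tested.

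**Figure D2:**
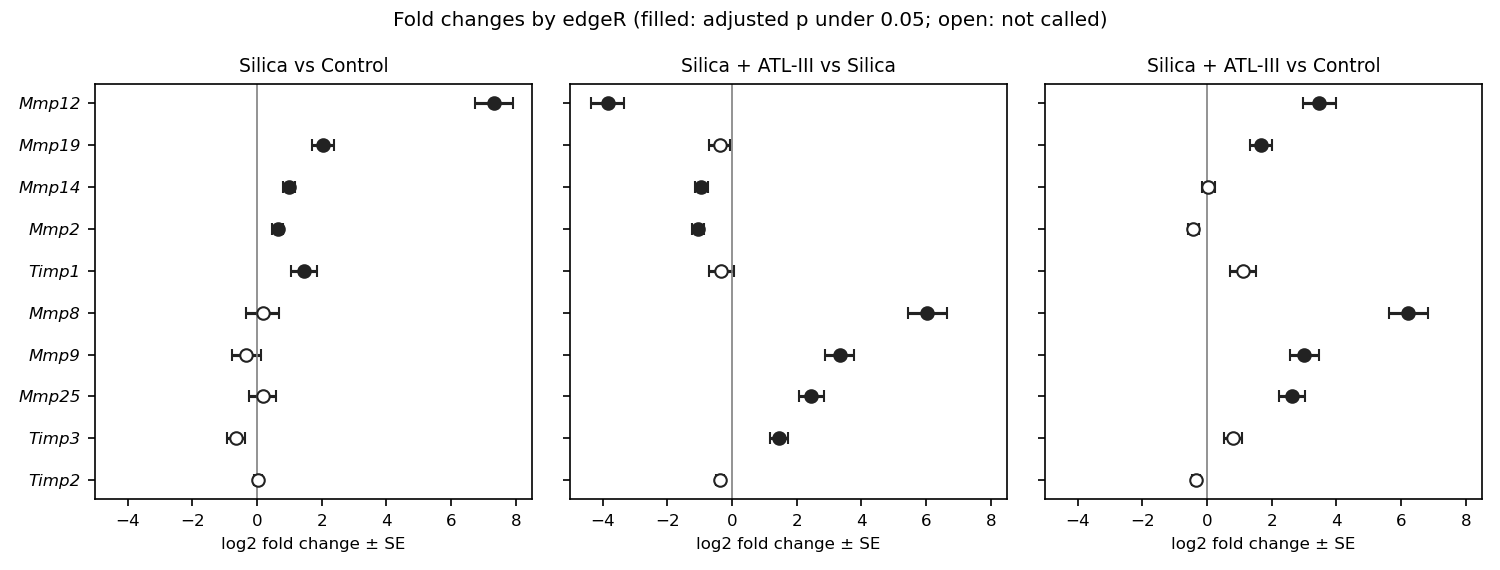
Log2 fold changes of the 10 genes by edgeR in the 3 comparisons, with bars of 1 SE, filled where the adjusted p was under 0.05 and open where it was not. Mmp12 changed most in Silica against Control (7.32) and Mmp8 in Silica + ATL-III against Silica (6.04).

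Silica + ATL-III against Silica asks how silica-treated lung differed where ATL-III was also given. Here 4 of 10 genes were higher (Mmp8, Mmp9, Mmp25 and Timp3) and 3 were lower (Mmp12, Mmp2 and Mmp14), where 21.2% of all tested genes were called, 11.2% higher and 10% lower. Against Control, 5 of 10 were higher (Mmp8, Mmp9, Mmp12, Mmp19 and Mmp25) and none was called lower, where 15.9% of all tested genes were called, 9.14% higher and 6.71% lower. There 2 members were lower at an unadjusted p under 0.05 by edgeR, limma on log2(FPKM + 0.5) called 1 lower and DESeq2 called 0. The 3 comparisons share libraries, so their calls are not independent. Both counts of higher genes include Mmp25, which was tested only on account of the Silica + ATL-III libraries and adds no support. The members' median log2 fold changes were -0.35 and 1.39, against -0.00034 and -0.01 over all tested genes.

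Mmp8, the neutrophil collagenase, was at 4.12, 17.55 and 4.58 FPKM in Control, 7.42, 15.3 and 5.05 FPKM in Silica, and 542, 763 and 488 FPKM in Silica + ATL-III. The lowest Silica + ATL-III library was far above the highest of the other 6, and Control and Silica overlapped. Mmp8 was 65.8-fold higher in Silica + ATL-III than in Silica (log2 6.04 ± 0.60, edgeR adjusted p = 0.00012) and 74.4-fold higher than in Control (log2 6.22 ± 0.60, edgeR adjusted p = 5.6e-05). Silica against Control was not called (log2 0.18 ± 0.51, edgeR adjusted p = 0.83), and its sign depended on single libraries, at 1.17 without Control 2 and -0.36 without Silica 2.

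Mmp9, a gelatinase of neutrophil granules, was at 1.48, 6.32 and 1.85 FPKM in Control, 2.42, 3.18 and 1.57 FPKM in Silica and 17.0, 26.3 and 27.4 FPKM in Silica + ATL-III. It was 10.03-fold higher in Silica + ATL-III than in Silica (log2 3.33 ± 0.46, edgeR adjusted p = 0.00063) and 8.00-fold higher than in Control (log2 3.00 ± 0.45, edgeR adjusted p = 0.00091). Silica and Control overlapped (log2 -0.33 ± 0.46, edgeR adjusted p = 0.65), with a value of 0.61 without Control 2. The 3 Silica + ATL-III libraries again lay above all 6 others.

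Mmp25, a membrane-anchored protease known from leukocytes, was at 0.26, 0.75 and 0.33 FPKM in Control, 0.41, 0.66 and 0.35 FPKM in Silica and 1.86, 2.07 and 3.70 FPKM in Silica + ATL-III. Its log2 fold change was 2.45 ± 0.39 over Silica (edgeR adjusted p = 0.0015) and 2.63 ± 0.40 over Control (edgeR adjusted p = 0.00095). Because it was tested only on account of the Silica + ATL-III libraries, these calls add no support of their own. Control 2 was the highest Control library for Mmp8, Mmp9 and Mmp25. Without it their log2 fold changes of Silica + ATL-III over Control were 7.21, 3.94 and 3.22.

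Neutrophil markers were high in the same libraries. The 13 markers summed to 553 to 3875 FPKM in Control, 730 to 4495 FPKM in Silica and 29365 to 44958 FPKM in Silica + ATL-III. All 11 that were tested were called higher in Silica + ATL-III against either group by edgeR. DESeq2 called 8 of them and limma 11 in each of these comparisons. Against Control the edgeR call of Csf3r was lost without Control 1 or Control 3. In Silica against Control 2 of 11 were higher (0 without Control 1, 1 without any single Silica library). S100a8, a calcium-binding protein abundant in neutrophils, was at 209, 1458 and 184 FPKM in Control, 783, 1764 and 267 FPKM in Silica and 11884, 11384 and 20401 FPKM in Silica + ATL-III. Of the neutrophil surface protein Ly6g there were 0.26 to 2.71, 0.66 to 7.70 and 53.8 to 83.0 FPKM in the same order. S100a9 alone made up 45.3% to 54.4% of the marker sums. Control 2 and Silica 2, which stood apart in the marker sum, were also highest in their groups for Mmp8, Mmp9 and Mmp25. Elane and Mpo, genes of neutrophil precursors, were low in every library (at most 0.49 and 0.27 FPKM) but highest in Silica + ATL-III. Mpo had 1 count in all Control libraries, 2 in Silica and 33 in Silica + ATL-III, and Elane had 3, 2 and 16. The part of neutrophil number in these results was not tested.

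**Figure D3:**
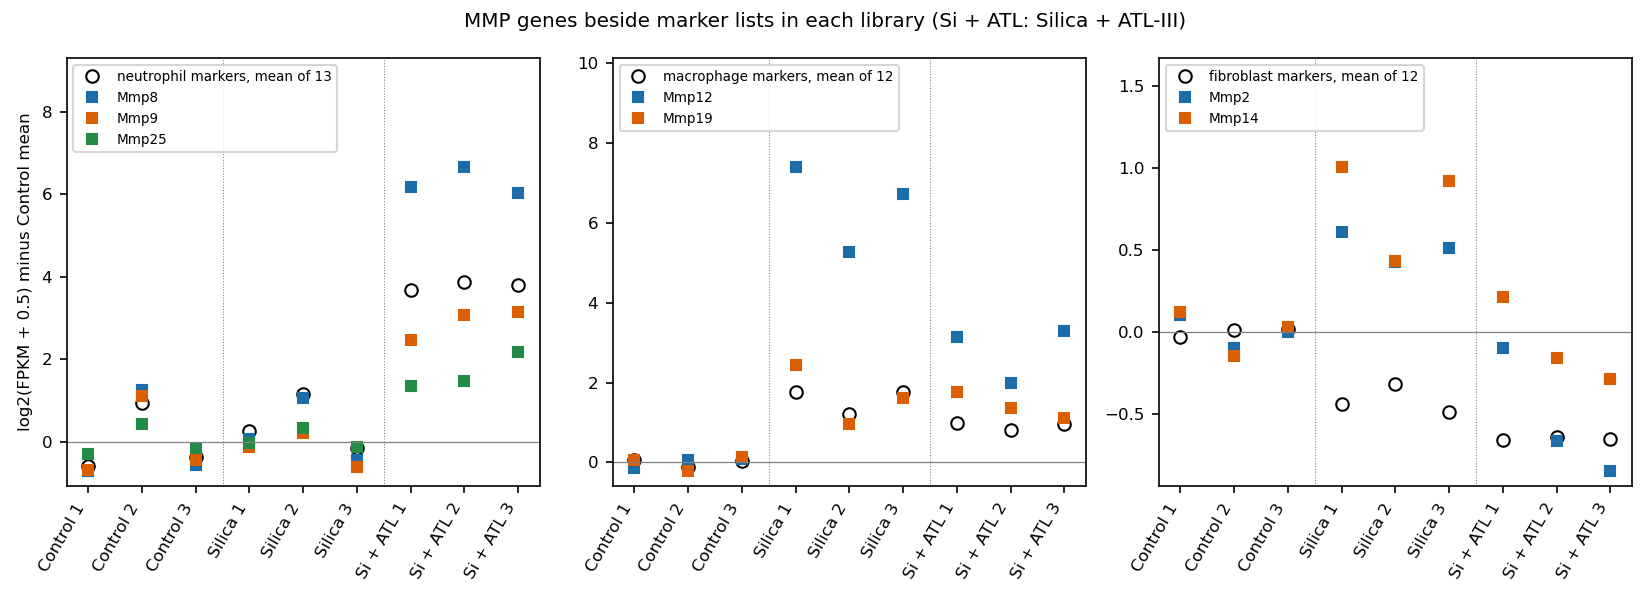
MMP genes (squares) beside the mean of a marker list (open circles) in each library, as log2(FPKM + 0.5) minus the Control mean: neutrophil markers with Mmp8, Mmp9 and Mmp25, macrophage markers with Mmp12 and Mmp19, fibroblast markers with Mmp2 and Mmp14. Control 2 and Silica 2 are the highest of their groups in the first panel, and Mmp2 and Mmp14 lie above the fibroblast markers in all 3 Silica libraries.

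Among the inhibitors, Timp1, which is induced in many injured tissues and binds the Mmp9 precursor, was at 10.1, 8.56 and 8.27 FPKM in Control, 28.6, 13.9 and 25.4 FPKM in Silica and 31.1, 13.7 and 8.93 FPKM in Silica + ATL-III. All Silica libraries were above Control, while the Silica + ATL-III libraries spanned nearly the whole range. Timp1 rose 2.72-fold with silica (log2 1.44 ± 0.40, edgeR adjusted p = 0.032), a call lost without Control 1, 2 or 3, Silica 1 or Silica 3 (adjusted p up to 0.13) and with limma. It was not called in Silica + ATL-III against Silica (log2 -0.33 ± 0.38, edgeR adjusted p = 0.57) or against Control (1.11 ± 0.40, adjusted p = 0.083). Without Silica + ATL-III 3, and with no FPKM filter, the last was called (log2 1.45, adjusted p = 0.02, and log2 1.12, adjusted p = 2.8e-08). The unfiltered edgeR fit gave far smaller adjusted p at nearly the same fold change. For Mmp12 in Silica against Control it gave 2.2e-192 at log2 7.34, where the main fit gave 6.7e-05 at log2 7.32. Its adjusted p is thus not comparable with the others and is no sign of a stronger difference.

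Timp3, which binds to the matrix and also inhibits some ADAM proteases, was at 40.8, 32.3 and 45.9 FPKM in Control, 22.1, 27.5 and 21.3 FPKM in Silica and 70.1, 88.3 and 33.8 FPKM in Silica + ATL-III. Silica was below both other groups in every library, and Silica + ATL-III overlapped Control through Silica + ATL-III 3. Timp3 was 2.75-fold higher in Silica + ATL-III than in Silica (log2 1.46 ± 0.27, edgeR adjusted p = 0.0037). Silica against Control was not called at log2 -0.65 ± 0.27 (edgeR adjusted p = 0.11), though the groups did not overlap, as was so in that direction for 28.9% of all tested genes. It was called with no FPKM filter or with the compared groups alone (adjusted p = 0.00017 and 0.018), the first with the limit given for Timp1. Silica + ATL-III against Control was not called (log2 0.81 ± 0.27, edgeR adjusted p = 0.064). It was called without Silica + ATL-III 3 (log2 1.13, adjusted p = 0.0012) and with DESeq2 (adjusted p = 0.01). With no FPKM filter it was called too (adjusted p = 1.9e-07), under the same limit.

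As a sum, endothelial markers moved in the same groups as Timp3. The 7 markers summed to 253 to 281 FPKM in Control, 162 to 210 FPKM in Silica and 239 to 306 FPKM in Silica + ATL-III, with none at 0. In Silica 2 of 7 were called lower than in Control (1 without Control 3 or Silica 1). In Silica + ATL-III 4 of 7 were called higher than in Silica (2 without Silica 1 or Silica + ATL-III 2). Against Control 2 were higher there (1 without Control 2, Control 3 or Silica + ATL-III 2) and 2 lower (0 without Control 2, Control 3 or Silica + ATL-III 1, 1 without Control 1 or Silica + ATL-III 3). Pecam1, an adhesion protein of endothelial cells, was at 48.9, 43.1 and 55.2 FPKM in Control, 27.0, 37.3 and 35.6 FPKM in Silica and 60.0, 86.3 and 44.3 FPKM in Silica + ATL-III. Its libraries had the same order as those of Timp3 within Control and within Silica + ATL-III, but not within Silica. Not every marker shared these orders: Cdh5 in Control and Tie1 in Silica + ATL-III did not. Other markers differed, as Kdr and Tek stayed below Control in Silica + ATL-III. Kdr was at 12.3 to 14.3 FPKM in Control, 7.15 to 11.4 FPKM in Silica and 7.74 to 8.99 FPKM in Silica + ATL-III. Tek was at 47.4 to 54.7, 25.0 to 35.15 and 27.5 to 37.5 FPKM in the same order. The part of endothelial cell number in these results was not tested.

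Timp2, which takes part in the activation of Mmp2 by Mmp14, stayed between 36.55 and 59.6 FPKM in all libraries. It was at 56.3, 51.1 and 59.6 FPKM in Control, 57.7, 47.5 and 54.2 FPKM in Silica and 42.7, 43.2 and 36.55 FPKM in Silica + ATL-III. Its log2 fold change was 0.04 ± 0.12 in Silica against Control (edgeR adjusted p = 0.86). Silica + ATL-III lay below both other groups in every library, with log2 differences of -0.36 ± 0.12 from Silica (edgeR adjusted p = 0.051) and -0.33 ± 0.12 from Control (edgeR adjusted p = 0.089). Groups did not overlap, in that direction, for 19.6% and 30.6% of all tested genes. The first of these differences was called in 8 of 16 alternative settings, DESeq2 (adjusted p = 0.023) and limma among them, and the second in 5 of 16.

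Summed over the 7 MMP genes, the level was 25.0, 41.1 and 25.4 FPKM in Control, 338, 109 and 218 FPKM in Silica and 602, 816 and 552 FPKM in Silica + ATL-III. The 3 TIMP genes summed to 107, 91.9 and 114 FPKM, 108, 88.9 and 101 FPKM, and 144, 145 and 79.3 FPKM. The MMP sum thus differed between groups with no overlap while the TIMP sums overlapped. The ratio of these 7 MMP to these 3 TIMP genes was 0.301 ± 0.126 in Control, 2.17 ± 0.948 in Silica and 5.59 ± 1.39 in Silica + ATL-III. Both sums and ratio depend on the choice of genes and are not the balance of the whole family. Mmp3, which is left out, was at 53.5, 34.0 and 34.5 FPKM in Control. It was at 17.55, 22.3 and 17.3 FPKM in Silica and 22.7, 20.2 and 11.6 FPKM in Silica + ATL-III. A single gene made up most of the sum in each silica group: Mmp12 was 58.7% to 83.6% of it in Silica and 0.756% to 2.89% in Silica + ATL-III, and Mmp8 was 2.20% to 14.1% and 88.5% to 93.4%. Without Mmp8 and Mmp12, the MMP sum was 20.5 ± 1.5 FPKM in Control, 37.7 ± 9.45 FPKM in Silica and 47.1 ± 0.982 FPKM in Silica + ATL-III. These sums were given no test.

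**Figure D4:**
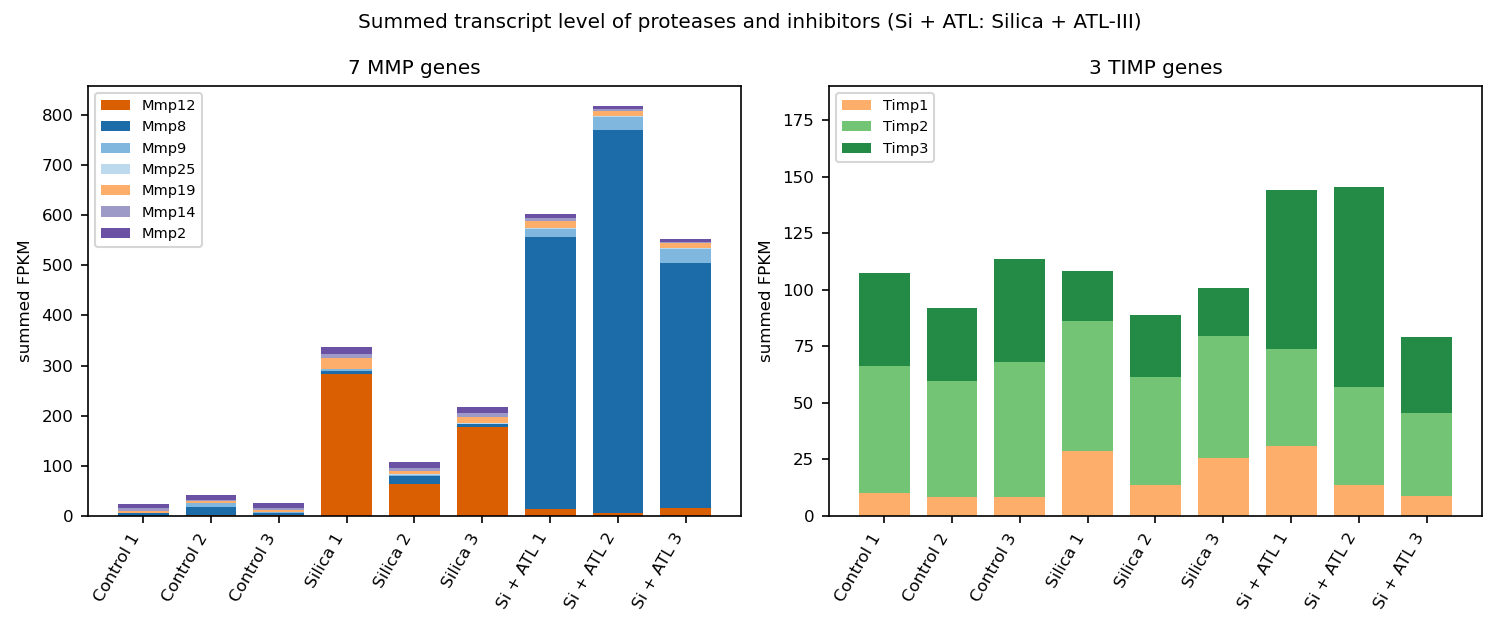
Summed FPKM of the 7 MMP genes (left) and the 3 TIMP genes (right) in each library, stacked by gene, with axes starting at 0. Mmp12 makes up 58.7% to 83.6% of the MMP bar in Silica and Mmp8 88.5% to 93.4% of it in Silica + ATL-III, and the TIMP bars overlap between groups.

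Mmp12 and Mmp8 both lie in a run of 10 MMP genes that spans 427072 bases of chromosome 9 (7272514 to 7699585), and the genes of this run had different patterns. In genomic order they are Mmp13, Mmp12, Mmp1b, Mmp3, Mmp1a, Mmp10, Mmp8, Mmp27, Mmp20 and Mmp7. Mmp3, a stromelysin that cuts many matrix proteins, was at 53.5, 34.0 and 34.5 FPKM in Control, 17.55, 22.3 and 17.3 FPKM in Silica and 22.7, 20.2 and 11.6 FPKM in Silica + ATL-III, so that Control was above both. Its log2 fold change against Control was -1.0 ± 0.23 in Silica (edgeR adjusted p = 0.017, lost without Control 1, Silica 1 or Silica 3) and -1.04 ± 0.23 in Silica + ATL-III (edgeR adjusted p = 0.01). Mmp27, which begins 2910 bases after Mmp8 ends, was at 0.47 to 0.56 FPKM in Control, 0.47 to 0.76 FPKM in Silica and 1.62 to 2.41 FPKM in Silica + ATL-III. It too was tested only through the last group.

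Mmp13, a collagenase at the other end next to Mmp12, was not tested, at 0.32 to 0.47 FPKM in Control, 0.98 to 4.60 FPKM in Silica and 0.31 to 0.80 FPKM in Silica + ATL-III, where Silica lay above both other groups. Mmp1a and Mmp1b had no count in any library. Mmp10 had 0 counts in Control, 68 in Silica, 62 of them in 1 library, and 1 in Silica + ATL-III. Mmp7 had 3 counts in Control, 2 in Silica and 0 in Silica + ATL-III, and Mmp20 had 1 count in all, in Silica. Mmp12 and Mmp1b overlap on opposite strands over 2.2% of the exonic bases of Mmp12.

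**Figure D5:**
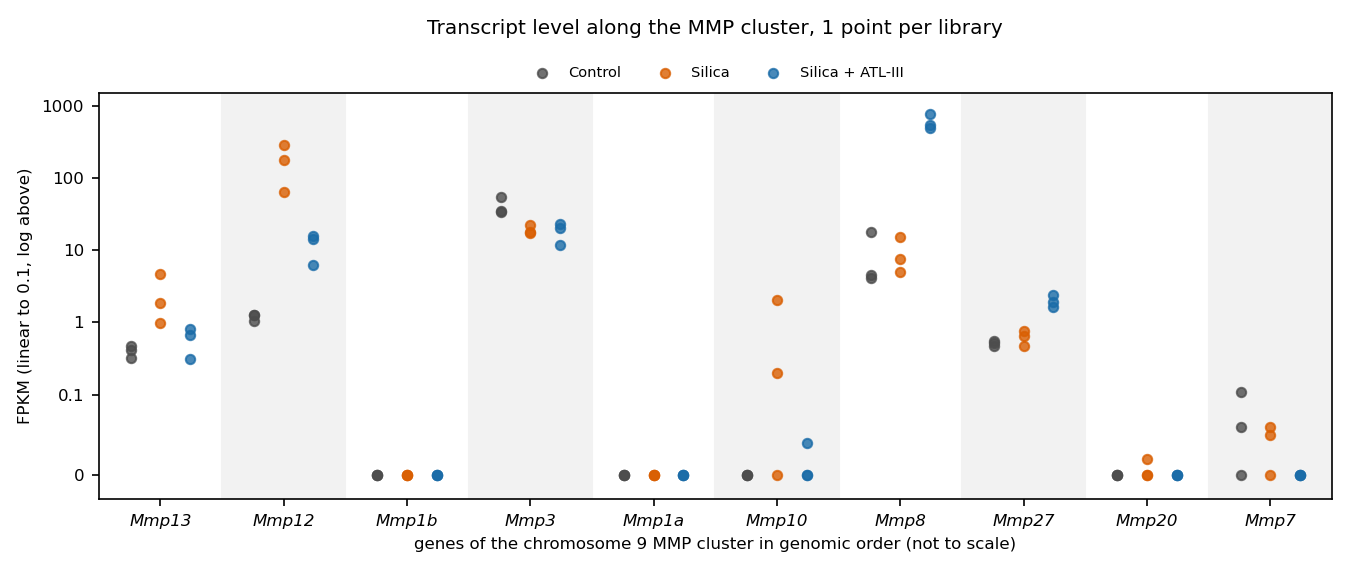
FPKM (linear up to 0.1, log above) of the 10 MMP genes of the chromosome 9 run in genomic order, 1 point per library, coloured by group. Mmp12 is highest in Silica (63.7 to 282), Mmp8 in Silica + ATL-III (488 to 763) and Mmp3 in Control (34.0 to 53.5), and Mmp1a and Mmp1b are at 0.

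Of 17 other MMP and TIMP genes, including those of the run, 6 were tested. In Silica against Control none was called higher (0 at an unadjusted p under 0.05, 0 by DESeq2 and 0 by limma) and 1, Mmp3, was lower. In Silica + ATL-III against Silica, Mmp27 was higher (log2 1.68 ± 0.27, edgeR adjusted p = 0.0015) and Mmp11 lower (log2 -0.86 ± 0.20, edgeR adjusted p = 0.011, lost without Silica + ATL-III 2). Against Control, Mmp27 was higher and Mmp3 and Mmp11 were lower, the last a call lost without Control 1, Control 3, Silica + ATL-III 1 or Silica + ATL-III 2. As Mmp27 was tested only through Silica + ATL-III, its calls add no support of their own. Mmp21, outside the run, had 0 counts in Control, 2 in Silica and 1 in Silica + ATL-III.

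Among 18 genes that activate, bind, inhibit or clear MMPs, 14 were tested. In Silica 6 were higher than in Control and 1 lower (3 higher without Control 1, Control 3, Silica 1 or Silica 3, and 0 lower on leaving out any single one of the 6 libraries). Lcn2, a secreted protein that binds Mmp9, rose from 40.6 ± 10.9 to 290 ± 62.8 FPKM (log2 2.93 ± 0.28, edgeR adjusted p = 0.00015). Plau, the urokinase that makes plasmin, rose from 1.78 ± 0.191 to 10.2 ± 4.04 FPKM (log2 2.63 ± 0.34, edgeR adjusted p = 0.00092), and was at 1.91 ± 0.776 FPKM in Silica + ATL-III. Cd44, a receptor that holds Mmp9 at the cell surface, rose by 0.92 ± 0.15 on the log2 scale (edgeR adjusted p = 0.0039). The gene called lower was the MMP inhibitor Reck.

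In Silica + ATL-III 3 of these 14 were higher than in Silica and 3 lower. Furin, which cuts the precursor of Mmp14, was at 4.18 ± 0.425 FPKM in Control, 3.86 ± 0.360 FPKM in Silica and 7.06 ± 0.464 FPKM in Silica + ATL-III (log2 0.89 ± 0.10 over Silica, edgeR adjusted p = 0.00026). Plat, the tissue plasminogen activator, was higher (log2 1.86 ± 0.28, edgeR adjusted p = 0.00095) and Plau lower (log2 -2.41 ± 0.34, edgeR adjusted p = 0.00072). The count of lower genes was 1 without Silica 1 or 3 or any single Silica + ATL-III library, and 5 without Silica 2. Against Control 6 were higher, led by Lcn2, Furin and the urokinase receptor Plaur, and none was called lower (1 at an unadjusted p under 0.05, 0 by DESeq2 and 1 by limma).

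Of 17 genes of ADAM and ADAMTS proteases, relatives of the MMPs of which Timp3 can inhibit some, 14 were tested. In Silica 2 were higher than in Control (1 without any single Control library) and 3 lower (1 without any single Control library, Silica 1 or Silica 3). Adam17, which sheds membrane proteins such as TNF, rose by 0.52 ± 0.10 on the log2 scale (edgeR adjusted p = 0.0061), Adam10 by 0.45 ± 0.11 (edgeR adjusted p = 0.017, lost without any single Control library), and Adamts10 fell by 0.97 ± 0.19 (edgeR adjusted p = 0.0082). In Silica + ATL-III against Silica 4 were higher, led by Adam15 (log2 0.82 ± 0.12) and the leukocyte protease Adam8 (log2 1.13 ± 0.21), and 2 lower, led by Adam10 (log2 -0.47 ± 0.11), with 1 lower without Silica 1 or Silica 3. Against Control 2 were higher, Adam8 first, and 2 lower, Adamts10 and Adam28, the latter lost without Control 1 or Silica + ATL-III 1. The higher count was 1 without Control 2, Control 3, Silica + ATL-III 1 or Silica + ATL-III 2, and the lower count was 1 without Control 1.

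Of 9 other elastases and collagen-degrading proteases 5 were tested, and 4 cathepsins were higher in Silica than in Control with 0 lower (0 at an unadjusted p under 0.05 and by DESeq2 and limma). Their log2 fold changes were led by Ctsk (4.26 ± 0.29), Ctss (2.20 ± 0.28) and Ctsb (1.92 ± 0.28). Ctsk, a collagen-cutting cathepsin, was at 18.5 ± 1.74 FPKM in Control, 328 ± 128 FPKM in Silica and 79.6 ± 15.4 FPKM in Silica + ATL-III. All 5 were lower in Silica + ATL-III than in Silica, with Ctsk at log2 -2.04 ± 0.26, Ctss at -1.19 ± 0.27 and Ctsb at -1.13 ± 0.28 (edgeR adjusted p = 0.00046, 0.011 and 0.014). That count was 2 without Silica 1, 3 without Silica 3 or Silica + ATL-III 1, and 1, Ctsk, without Silica + ATL-III 2. Against Control Ctsk and Ctss were higher, and Ctsk alone without any single Control library, Silica + ATL-III 1 or Silica + ATL-III 3. Ctsg, cathepsin G of neutrophil granules, was not tested, with 0 counts in Control, 3 in Silica and 68 in Silica + ATL-III.

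All 15 MMP substrates of the lung matrix on the list were tested. In Silica 2 were higher than in Control and 2 lower, where Spp1, the matrix protein osteopontin, led (log2 4.47 ± 0.58, edgeR adjusted p = 0.00093) and Lamb2 and Dcn, the latter also on the fibroblast list, were lower. Leaving out any single Control library or Silica 1 left 1 higher, and leaving out Control 3 or Silica 3 left 1 lower. Of all tested genes, 9.11% were called higher and 7.81% lower in that comparison. In Silica + ATL-III against Silica 6 were lower, among them the fibrillar collagen chains Col1a2 (log2 -1.80 ± 0.26, edgeR adjusted p = 0.0008) and Col3a1 (log2 -2.41 ± 0.36, edgeR adjusted p = 0.001). The large proteoglycan Vcan was the 1 gene called higher (log2 2.10 ± 0.23, edgeR adjusted p = 0.00021), and without Silica + ATL-III 3 there were 4. Against Control 6 were lower, led by Col1a1 and Col3a1 (3 without Control 1, Control 3 or Silica + ATL-III 3), and 1 higher, Vcan (3 without Silica + ATL-III 3).

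Genes whose level tracked single members over all 9 libraries were listed by Pearson's r of log2 CPM. For Mmp12 these were Tnfrsf26 (r = 0.998), Ctsk (r = 0.994) and the macrophage receptor Trem2 (r = 0.994). For Mmp8 they were Sbno2 (r = 0.993), Ifitm6 (r = 0.993) and Grina (r = 0.993), with Ifitm6 at 3.96 to 16.7 FPKM in Control and Silica and 286 to 334 FPKM in Silica + ATL-III. For Mmp2 they were the matrix protein genes Tnc (r = 0.982) and Egfl6 (r = 0.978), and Gtf3c4 (r = 0.972). These values describe 9 libraries that share 3 groups, and carry no test.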

How the data were processed

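Poly(A) RNA of 9 mouse lung libraries was sequenced after random priming, per the labels' protocols. Cutadapt 1.9.1, HISAT2 2.0.1, HTSeq 0.6.1 and mm10 are named, without roles, in the submitters' processing notes; the sources used here do not give the annotation release. The deposited table holds raw read counts per gene and, per the file headers, the FPKM the authors computed; recomputing FPKM from count, exonic length and column total gave 100% of deposited values within 0.006. Start and end positions in the table both matched GENCODE M21 for 1 of the 10 genes, so positions are from GENCODE.

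Counts were tested with edgeR 4.0.16 (quasi-likelihood, TMM, R 4.3.3), in 1 model of 3 group means over 9 libraries (6 residual degrees of freedom), for 15459 genes with at least 1 FPKM in at least 3 libraries. A call is a Benjamini-Hochberg adjusted p under 0.05. FPKM are printed as deposited, so their ratios can differ from TMM-scaled fold changes. The standard error is the log2 fold change over the square root of F. The script was tested on simulated counts. Libraries of a group differed beyond sampling noise (lowest chi-square per degree of freedom 6.93).

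The 10 genes, the other lists and the markers were chosen with earlier results of these data known. Named are all 10 genes, the 3 called genes of smallest p per list and comparison, list genes with no count in a group, and the 3 genes correlating best with Mmp2, Mmp8 and Mmp12 (log2 CPM, prior count 2). Other values, such as Mmp13, Reck and single markers, were picked after they were seen. Alternatives were DESeq2 1.42.0, library totals, upper-quartile scaling, no FPKM filter, filterByExpr, limma 3.58.1 on log2(FPKM + 0.5), log2(FPKM + 0.1) and log2(TPM + 0.5), the compared groups alone, the replicate block and each library left out.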

Additional observations from a re-analysis of the deposited data

How the results depend on the processing

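Over 16 alternative settings of each member's fold change in each comparison, 440 values kept their direction or stayed uncalled, 17 lost a call, 23 gained one and 0 called values changed sign; the cause of these shifts was not tested. Without 1 library, genes called ranged from 862 to 3944 in Silica against Control, 1925 to 3877 in Silica + ATL-III against Silica and 1474 to 2320 in Silica + ATL-III against Control. Members called higher in Silica against Control ranged from 3 to 5 on leaving out a library, and were 3 with limma on log2(FPKM + 0.5), on log2(FPKM + 0.1) and on log2(TPM + 0.5), where Mmp2 and Timp1 lost their calls. Members called lower there were 1 with no FPKM filter and 1 with the compared groups alone (Timp3). Members called lower in Silica + ATL-III against Control were 1 with library totals, 1 with upper-quartile scaling, 1 with no FPKM filter, 1 with limma on log2(FPKM + 0.5), 1 on log2(FPKM + 0.1) and 2 on log2(TPM + 0.5), and 0 to 1 on leaving out a library (1 without Silica + ATL-III 1).

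Scaling moved the median of all genes. On TPM it moved by -0.185, -0.113 and -0.299 (log2) in the order Silica against Control, Silica + ATL-III against Silica and Silica + ATL-III against Control, and on library totals by -0.101 in the first and -0.121 in the last. Of genes called, 53.8%, 52.6% and 57.6% were higher with TMM, 17.0%, 28.5% and 12.3% on TPM, 32.7%, 45.9% and 34.3% on library totals, 33.6%, 45.3% and 35.2% with limma on log2(FPKM + 0.5) and 55.2%, 42.5% and 47.4% with upper-quartile scaling. In the last comparison 5888 genes were called on TPM. With the replicate block 2120, 2822 and 2109 genes were called and no member's call changed. Deviations of same-numbered libraries correlated at -0.133 to 0.120 over 9 pairs, 1 of them over 0.1. Such low values do not exclude a pairing or a shared batch, and the labels name neither. Among pairs of Control with Silica, each library correlated best with the one of its own number (0.0904, 0.120 and 0.0897), a hint from the data and not the design. This was not so for pairs with Silica + ATL-III. There, pairs of different number reached values as high: Control 1, 2 and 3 correlated at 0.0926, 0.126 and 0.118 with Silica + ATL-III 2, 3 and 1. Depth limits Mmp25 most, with as few as 23 counts in a library.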
